A study of Mus musculus with 22 samples.

Results

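The imprinted Dlk1 and Meg3 domain of mouse chromosome 12 was followed through 5 of its genes, Dlk1, Meg3, Rian, Mirg and Rtl1, of the 55049 genes listed in every table. All 5 were found by symbol and described in all 10 groups of the series. The genes had been selected on their CPM (reads of a gene scaled to a common library total) in these same groups, so their levels and differences are given as a description, with no test. Tests were kept for other genes.

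The 22 RNA-seq libraries came from wt mouse embryonic stem (mES) cells and from mES cells of genotype Hox-/-, named for the Hox genes, which set position along the body axis; the labels do not describe the alleles. The mES cells of both genotypes (2 libraries each) were kept in serum medium holding LIF at 100 ng/ml and a pair of inhibitors, CHIR99021 against GSK-3 at 3 µM and PD0325901 against MEK at 1 µM. Endoderm cultures of both genotypes (3 libraries each) were treated on plates with 100 ng/ml Activin A and 3 µM CHIR99021 at 24 h and 72 h and collected at 120 h. Gastruloids, aggregates of stem cells that form tissues of the early embryo, were made with Activin A from both genotypes and with Chiron, as the labels call it, from wt alone, and were collected at 96 h and 120 h (2 libraries per group). The labels give no gastruloid doses, leave the number of clones per genotype unstated, and do not say whether libraries of a group came from separate cultures, so genotype and cell line cannot be told apart, and the spread between libraries may be technical.

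The domain is a textbook case of genomic imprinting, in which a gene is read from the copy of 1 parent only. Dlk1, a membrane protein of the Notch ligand family without the usual activating domain, Rtl1, a protein derived from a retrotransposon and needed in the placenta, and Dio3, a thyroid hormone deiodinase at the far end, are expressed mainly from the paternal chromosome. Meg3 (also called Gtl2), Rian and Mirg are long noncoding RNAs of the maternal chromosome; Rian carries a cluster of small nucleolar RNAs (snoRNAs), and Mirg carries microRNAs. A methylated region between Dlk1 and Meg3 controls both sides, and loss of Meg3 expression is a known defect of some pluripotent stem cell lines. RNA counts do not separate the parental copies, and in bulk samples fewer expressing cells and less RNA per cell cannot be told apart.

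In the mm10 build, Dlk1 (ENSMUSG00000040856) lay on the plus strand at chr12:109452849-109463336 and Meg3 (ENSMUSG00000021268) on the plus strand at chr12:109541001-109571726. Rian (ENSMUSG00000097451, chr12:109603808-109661716) and Mirg (ENSMUSG00000097391, chr12:109729764-109749460) followed on the same strand. Rtl1 (ENSMUSG00000085925, chr12:109589193-109600330) lay between Meg3 and Rian on the minus strand. The start of Meg3 is printed first because the 3 noncoding RNAs were high or low together in most comparisons below. It covers chr12:109540746-109541045 (RefSeq, GRCm38.p6, plus strand, 250 bases before to 50 after the start). Capitals mark TGACGTCA, the cyclic AMP response element, 57 bases before the start, and 2 overlapping matches to TATAAA, 1 on each strand, from 29 and 25 bases before it. The Rian window, chr12:109603695-109603994 on the plus strand, is set below it because it held neither motif.
Meg3: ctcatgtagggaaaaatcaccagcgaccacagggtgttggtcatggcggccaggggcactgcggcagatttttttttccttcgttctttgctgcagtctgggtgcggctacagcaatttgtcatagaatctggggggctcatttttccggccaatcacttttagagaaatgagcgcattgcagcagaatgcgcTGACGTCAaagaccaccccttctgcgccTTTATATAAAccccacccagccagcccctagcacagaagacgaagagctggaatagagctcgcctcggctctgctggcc
Rian: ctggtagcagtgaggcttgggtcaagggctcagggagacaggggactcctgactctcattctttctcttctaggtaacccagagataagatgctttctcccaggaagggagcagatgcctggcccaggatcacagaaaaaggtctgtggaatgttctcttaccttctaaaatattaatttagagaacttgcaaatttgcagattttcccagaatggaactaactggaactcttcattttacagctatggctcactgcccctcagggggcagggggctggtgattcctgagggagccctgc

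Both strands were searched. Of 32851 RefSeq windows of this length, 588 (1.79%) held TGACGTCA and 4473 (13.6%) held TATAAA. The printed Meg3 window held 13 CpG dinucleotides, the Dlk1 window 9, the Mirg window 10 and the Rian window 0, against a median of 7 over all windows. RefSeq lists another Meg3 start, whose window (chr12:109545148-109545447) held 1 CpG and neither motif. The Mirg window held neither motif. The Dlk1 window held neither motif. These matches are descriptions of letters and not of bound sites.

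Rtl1 is overlapped on the opposite strand by 6 microRNA genes, and RefSeq lists 11 mature microRNAs there. The 5 below are shown because they lie opposite Rtl1. Whether reads from their strand entered the Rtl1 values was not tested. Capitals mark the seed, bases 2 to 8, which a microRNA uses to find its targets. None of the 5 seeds recurs among the 114 mature sequences that RefSeq places between Dlk1 and Dio3.
miR-431-5p: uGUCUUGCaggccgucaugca
miR-433-3p: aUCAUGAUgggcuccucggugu
miR-127-3p: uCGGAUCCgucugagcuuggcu
miR-434-3p: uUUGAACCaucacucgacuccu
miR-136-5p: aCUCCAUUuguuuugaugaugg

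Libraries held 9.11 M to 28.8 M counts (M, mega), so 3 counts, taken here as the floor of detection, corresponded to 0.104 to 0.329 CPM (counting error only). The gastruloid libraries of 96 h were deeper than those of 120 h, so that time and depth cannot be told apart. Summed over 39 Hox genes, the Hox-/- libraries held 0.448 to 1.34 CPM against 30.4 to 35.7 in mES cells and 22.5 to 28.6 against 828 to 877 in endoderm. In Activin A gastruloids the sums were 102 to 104 against 625 to 660 CPM at 96 h and 63.8 to 69.5 against 1170 to 1190 at 120 h. The genotype labels and the Hox counts thus matched in all 4 settings. All 7 pluripotency markers were detected in every mES library, at a summed 7040 to 7070 CPM in wt and 6690 to 6740 in Hox-/-. All 7 endoderm markers were detected in every endoderm library. They were also detected in every gastruloid library, so their detection does not set the endoderm cultures apart.

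Meg3, Rian and Mirg were abundant in every group, Dlk1 was near the floor in mES cells, and Rtl1 was low everywhere. Together the 5 genes took 0.0517% to 0.0537% of all counts in wt mES cells and 0.452% to 0.503% in Hox-/- Activin A gastruloids at 96 h, which was the highest share of the 10 groups. Levels of different genes can be set side by side only per length, as the authors' FPKM (fragments scaled to transcript length and library size). In wt mES cells the mean FPKM was 136 for Rian, 66.9 for Meg3 and 0.561 for Dlk1 (n = 2). In wt endoderm it was 369 for Rian, 427 for Meg3 and 24.0 for Dlk1 (n = 3). Meg3 FPKM per CPM differed between these groups, at 0.350 and 0.355 in wt mES cells and 0.532 to 0.550 in wt endoderm. The place of Meg3 against Rian is therefore not compared between them.

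The order of the groups differed between the protein-coding and the noncoding genes. By mean CPM, Dlk1 was highest in wt endoderm (35.7 ± 7.08, SD, n = 3) and in wt Chiron gastruloids at 120 h (28.5 ± 0.907, n = 2), which overlapped. Hox-/- endoderm (16.0 ± 0.639, n = 3) and wt Activin A gastruloids at 120 h (14.2 ± 1.31, n = 2) came next. Both mES groups were lowest for Dlk1. Meg3, Rian and Mirg were all highest in Hox-/- Activin A gastruloids at 96 h, at 1912 ± 200, 2637 ± 152 and 219 ± 9.40 CPM (n = 2). All 3 were lowest in wt mES cells, at 190 ± 15, 310 ± 0.724 and 26.8 ± 1.71 CPM (n = 2). For Meg3, wt Activin A at 120 h overlapped Hox-/- Activin A at 120 h, which overlapped Hox-/- endoderm, which overlapped wt Chiron at 120 h; the other neighbours in its order did not overlap. For Rian, Hox-/- endoderm (1538 CPM) and wt Activin A at 96 h (1496 CPM) overlapped and were next in order; no other neighbours in its order did. For Mirg, the next places were held by wt Activin A at 96 h (120 CPM), Hox-/- Activin A at 120 h (113.5 CPM) and wt Activin A at 120 h (112 CPM). Of these, none overlapped its neighbour, while wt Activin A at 120 h overlapped wt Chiron at 120 h (103 CPM) and wt endoderm (41.9 CPM) overlapped Hox-/- mES cells (41.2 CPM). Rtl1 was highest in wt Chiron at 120 h (1.80 CPM) and next in wt Activin A at 120 h (0.818 CPM), with no overlap, and the 8 other groups were at or near the floor.

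**Figure D1:**
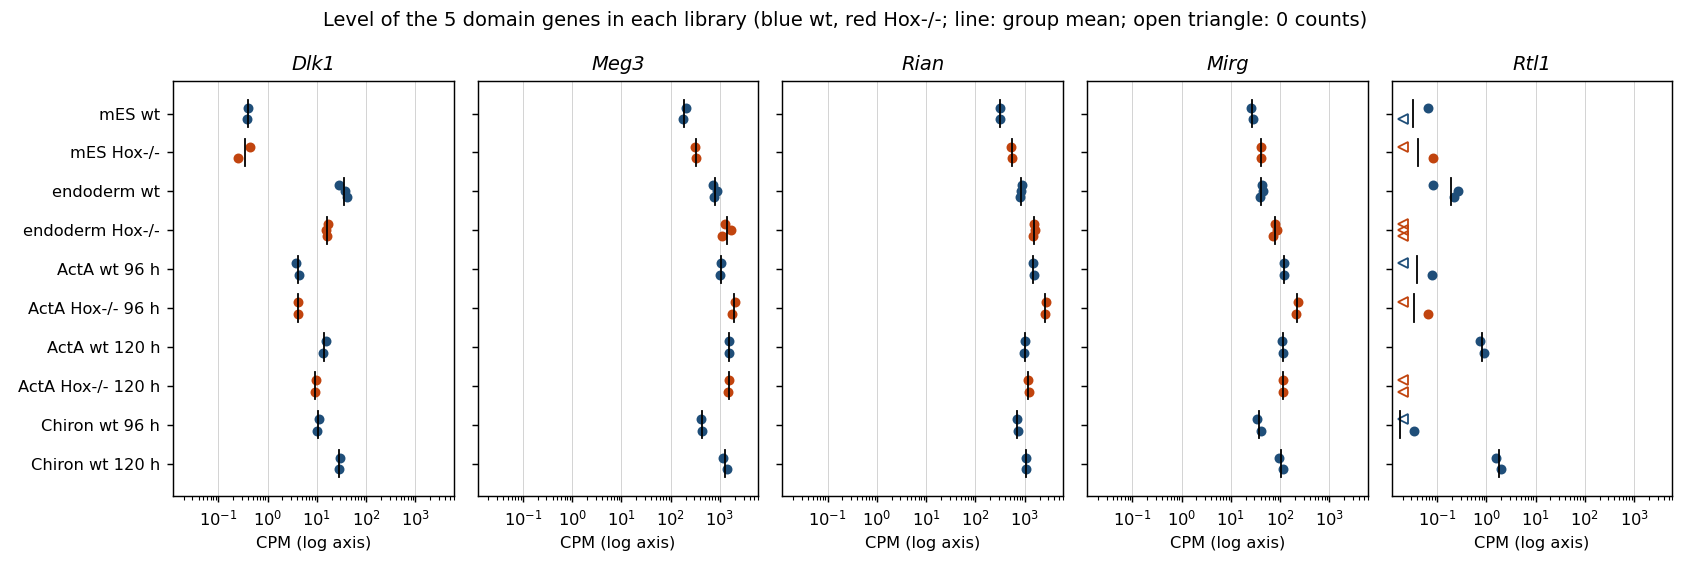
CPM of each gene (log axis) in each of the 22 libraries, grouped by sample type; points are libraries, black lines group means, and open triangles libraries with 0 counts. Dlk1 and Rtl1 spread over wide ranges near and above the floor, whereas Meg3, Rian and Mirg stay between 25.6 and 2745 CPM.

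The first question was how the genotypes compared in mES cells. The 3 maternal noncoding RNAs were higher in the Hox-/- cells, and Dlk1 was at the edge of detection in both. Meg3 was counted at 200 and 179 CPM in the wt libraries and at 315 and 324 in the Hox-/- libraries, a log2 ratio of means of 0.75. Rian was at 311 and 310 CPM in wt and at 534 and 565 in Hox-/- (log2 ratio 0.83). Mirg was at 25.6 and 28.0 CPM in wt and 41.4 and 40.9 in Hox-/- (log2 ratio 0.62). For each of these RNAs both Hox-/- libraries lay above both wt libraries. Dlk1 had 6 and 5 reads in wt and 6 and 3 in Hox-/-, and the groups overlapped. Rtl1 had 1 and 0 reads in wt and 0 and 1 in Hox-/-, so no ratio is given. Thus 3 of the 5 genes did not overlap between genotypes; 59.9% of all genes tested did not, and since these genes were chosen on these values nothing is read from that count. Of 8 fibroblast markers, which would mark feeder cells, 5 (Col3a1, Dcn, Lum, Postn, Twist2) were at the floor in both genotypes. The 8 markers summed to 3.98 to 4.35 CPM in wt and 1.94 to 2.27 in Hox-/-. The 6 endothelial markers, with Cdh5, Tie1 and Emcn at the floor, summed to 124 to 126 CPM in wt and 183 to 189 in Hox-/-. That sum rests on Pecam1, Kdr and Tek. It was only 4.23 to 53.7 CPM in the endoderm and gastruloid groups, so it is not read as endothelial cells here. The part of these lists in the levels of the noncoding RNAs was not tested.

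In endoderm, Dlk1 was lower and the noncoding RNAs were higher in Hox-/- cultures. Dlk1 was at 28.0, 37.1 and 42.0 CPM in the wt libraries and at 16.7, 15.4 and 15.9 in the Hox-/- libraries, a log2 ratio of -1.16. Meg3 was at 732, 886 and 757 CPM in wt and 1291, 1702 and 1106 in Hox-/- (log2 ratio 0.79). The Hox-/- libraries were all above the wt libraries but more spread, with an SD of 305 against 82.3 CPM. Rian was at 868, 860 and 804 CPM in wt and 1520, 1641 and 1455 in Hox-/- (log2 ratio 0.87). Mirg was at 42.8, 44.0 and 38.8 CPM in wt and 78.5, 84.9 and 72.6 in Hox-/- (log2 ratio 0.91). Rtl1 had 1, 4 and 3 reads in wt and 0 in each Hox-/- library; with wt this close to the floor no ratio is given. All 5 genes did not overlap between genotypes, beside 54.7% of all genes tested, and nothing is read from that count.

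The endoderm cultures of the 2 genotypes also differed in cell type markers. The 7 endoderm markers summed to 357 to 375 CPM in wt and 170 to 185 in Hox-/-, and the 7 pluripotency markers to 780 to 911 and 225 to 242. All 14 were detected in every library. The 7 caudal and presomitic markers, also all detected, summed to 391 to 449 CPM in wt and 515 to 561 in Hox-/-. The 8 fibroblast markers, with only Lum at the floor, summed to 183 to 255 CPM in wt and 429 to 455 in Hox-/-. The part of these marker differences in the levels of Dlk1 and Meg3 was not tested.

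In Activin A gastruloids at 96 h the noncoding RNAs were again higher in Hox-/-, while Dlk1 overlapped between genotypes. Meg3 was at 1054 and 997 CPM in wt and 2053 and 1770 in Hox-/- (log2 ratio 0.90). Rian was at 1484 and 1508 CPM in wt and 2745 and 2530 in Hox-/- (log2 ratio 0.82). Mirg was at 121 and 118 CPM in wt and 225 and 212 in Hox-/- (log2 ratio 0.87). Dlk1 was at 3.87 and 4.30 CPM in wt and 4.16 and 4.21 in Hox-/-, so that the Hox-/- libraries lay between the wt ones. Rtl1 had 0 and 2 reads in wt and 0 and 1 in Hox-/-. Thus 3 of 5 genes did not overlap, beside 67.7% of all genes tested, from which nothing is read. The 7 endoderm markers summed to 527 to 591 CPM in wt and 168 to 170 in Hox-/-, and the 7 caudal and presomitic markers to 2370 to 2480 and 2950 to 2990, with all 14 detected; their part was not tested.

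At 120 h the noncoding RNAs of the 2 genotypes were within 0.26 of each other on the log2 scale of CPM, and Dlk1 and Rtl1 were lower in Hox-/-. Dlk1 was at 15.1 and 13.3 CPM in wt and 9.74 and 9.07 in Hox-/- (log2 ratio -0.60). Rtl1 had 7 and 8 reads in wt and 0 in both Hox-/- libraries, at least 3.03-fold lower when each Hox-/- library is set at 3 counts. Meg3 was at 1504 and 1509 CPM in wt and 1506 and 1471 in Hox-/-, with overlapping libraries. Rian was at 1020 and 961 CPM in wt and 1174 and 1195 in Hox-/- (log2 ratio 0.26). Mirg was at 111 and 113 CPM in wt and 113.5 and 113.4 in Hox-/- (log2 ratio 0.02). Scaling by edgeR's TMM, which allows for a few genes taking up many reads, moved every ratio of this comparison up by 0.11, to -0.48 for Dlk1, 0.09 for Meg3, 0.37 for Rian and 0.13 for Mirg. The sign of the Meg3 value therefore depends on the scaling (-0.02 by total counts), and by FPKM the ratio was 0.68. In all, 4 of 5 genes did not overlap, beside 73.2% of all genes tested, from which nothing is read. The 7 endoderm markers summed to 532 to 543 CPM in wt and 151 to 157 in Hox-/-, and the 6 somitic markers to 600 to 614 and 956 to 958; their part was not tested.

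**Figure D2:**
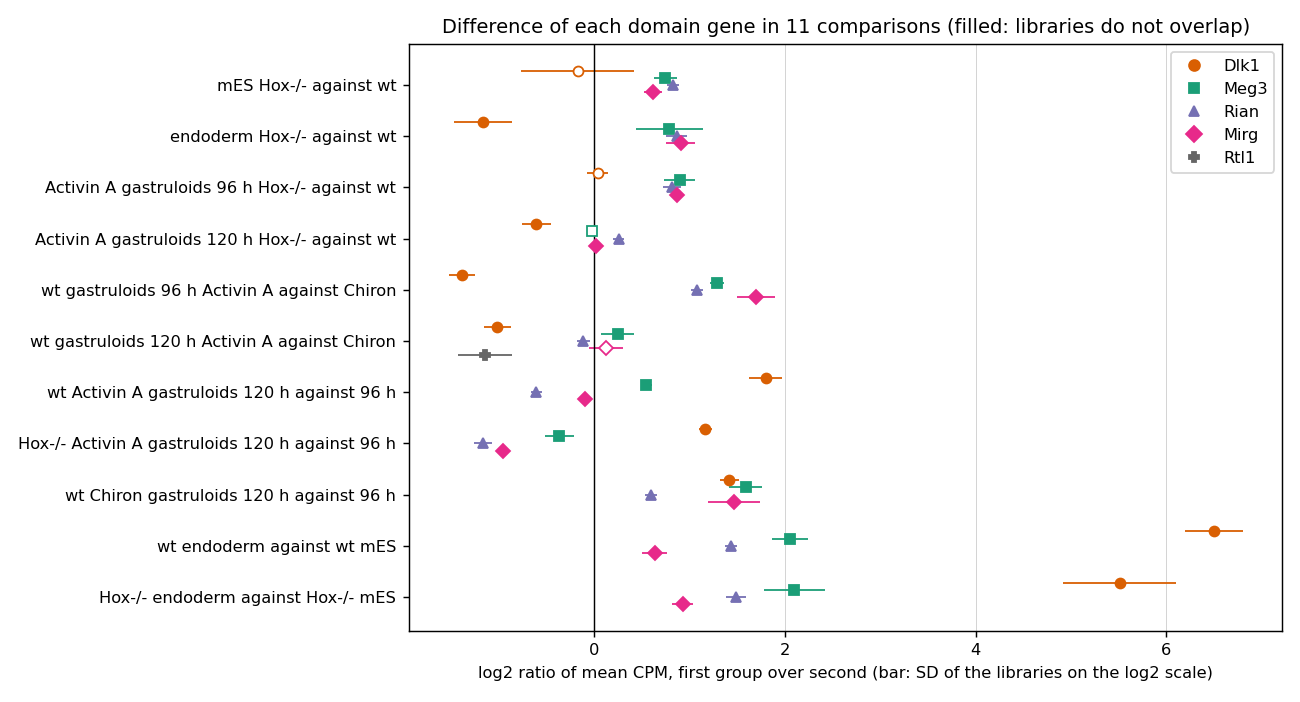
Log2 ratio of mean CPM of each gene in the 11 comparisons, with bars for the SD of the libraries on the log2 scale (the 2 groups' variances added) and filled symbols where libraries do not overlap. In 3 of the 4 genotype comparisons Meg3, Rian and Mirg sit between 0.62 and 0.91; at 120 h they sit between -0.02 and 0.26. Ratios against a group at the floor are left out.

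The treatment comparison set Activin A against Chiron in wt gastruloids; it shares the wt Activin A libraries with the genotype comparisons. At 96 h Dlk1 was lower under Activin A and the noncoding RNAs were higher. Dlk1 was at 3.87 and 4.30 CPM under Activin A and 11.1 and 10.2 under Chiron (log2 ratio -1.38). Meg3 was at 411 and 430 CPM under Chiron (log2 ratio 1.29), Rian at 688 and 726 (log2 ratio 1.08) and Mirg at 33.3 and 40.6 (log2 ratio 1.70), each below both Activin A libraries given above. Rtl1 had 0 and 1 reads under Chiron. Here 4 of 5 genes did not overlap, beside 80.3% of all genes tested, from which nothing is read. The 7 endoderm markers summed to 527 to 591 CPM under Activin A and 163 to 166 under Chiron, the 7 pluripotency markers to 1040 to 1070 and 220 to 293, and the 6 somitic markers to 64.6 to 66.1 and 429 to 635; their part was not tested.

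At 120 h Dlk1 was still lower under Activin A, and the log2 ratios of the noncoding RNAs lay between -0.11 and 0.25. Dlk1 was at 29.2 and 27.9 CPM under Chiron, against 15.1 and 13.3 under Activin A (log2 ratio -1.01). Meg3 was at 1164 and 1369 CPM under Chiron, below both Activin A libraries (log2 ratio 0.25). Rian was at 1057 and 1084 CPM under Chiron, above both Activin A libraries (log2 ratio -0.11). Mirg was at 93.6 and 112 CPM under Chiron, and the groups overlapped. Rtl1 had 19 reads in each Chiron library (1.59 and 2.02 CPM) against 0.757 and 0.878 CPM under Activin A, a log2 ratio of -1.14, whereas by FPKM it was -0.15 and the groups overlapped. These were the highest Rtl1 counts of the series. In all 4 of 5 genes did not overlap, beside 69.5% of all genes tested, from which nothing is read. The 6 somitic markers summed to 885 to 933 CPM under Chiron and 600 to 614 under Activin A, and the 7 endoderm markers to 59.3 to 64.5 and 532 to 543; their part was not tested.

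From 96 h to 120 h, Dlk1 was higher at the later time in all 3 series of gastruloids, whereas the direction of the noncoding RNAs differed between the series. The log2 ratio of 120 h over 96 h for Dlk1 was 1.80 in wt Activin A, 1.17 in Hox-/- Activin A and 1.42 in wt Chiron gastruloids. For Meg3 it was 0.55, -0.36 and 1.59 in the same order by CPM, and 0.46, 0.25 and 1.47 by FPKM, so that the direction in Hox-/- gastruloids turned between the measures, with no overlap in either. For Rian it was -0.60, -1.16 and 0.60, and for Mirg -0.09, -0.95 and 1.47. In Hox-/- Activin A gastruloids all 3 noncoding RNAs were thus lower at 120 h by CPM, and Rian and Mirg also by FPKM, while in Chiron gastruloids all 3 were higher by both. In wt Activin A gastruloids Meg3 was higher at 120 h while Rian and Mirg were lower. The TMM scaling moved the Chiron ratios down by 0.11, with no change of sign. Between the times, 5 of 5 genes did not overlap in wt Activin A (87.3% of all genes tested), 4 of 5 in Hox-/- Activin A (85.3%) and 5 of 5 in Chiron gastruloids (79.8%), and nothing is read from these counts. Cell type markers moved with time as well. From 96 h to 120 h the 7 pluripotency markers went from 1040 to 1070 CPM to 80.9 to 81.8 in wt and from 889 to 907 to 20.7 to 21.2 in Hox-/- Activin A gastruloids, where Zfp42 was at the floor. In Chiron gastruloids the sums of these 7 markers overlapped between the times, at 220 to 293 and 274 to 287 CPM. The 7 caudal and presomitic markers went from 2370 to 2480 to 506 to 522 in wt Activin A, from 2950 to 2990 to 572 to 583 in Hox-/- and from 1760 to 1880 to 522 to 574 in Chiron gastruloids. The 6 somitic markers went from 64.6 to 66.1 to 600 to 614, from 20.9 to 23.8 to 956 to 958, and from 429 to 635 to 885 to 933 CPM in the same order. The part of these lists was not tested.

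Differentiation to endoderm came with higher levels of 4 genes in both genotypes. The log2 ratio of endoderm over mES cells was 6.50 for Dlk1, 2.06 for Meg3, 1.44 for Rian and 0.64 for Mirg in wt. In Hox-/- it was 5.51 for Dlk1, 2.10 for Meg3, 1.49 for Rian and 0.93 for Mirg. The Dlk1 values rest on 3 to 6 reads per mES library. By FPKM the ratio was 5.42 for Dlk1 and 2.68 for Meg3 in wt and 4.42 for Dlk1 and 1.70 for Meg3 in Hox-/-. TMM scaling lowered the wt ratios by 0.12 and the Hox-/- ratios by 0.08. Libraries of 5 of 5 genes did not overlap in wt (85.9% of all genes tested) and of 4 of 5 in Hox-/- (86.1%), from which nothing is read. From mES cells to endoderm the 7 pluripotency markers went from 7040 to 7070 CPM to 780 to 911 in wt and from 6690 to 6740 to 225 to 242 in Hox-/-; their part was not tested.

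Rtl1 was the member whose deposited measures went apart. Its reads were counted at 38 in the Chiron libraries of 120 h together and at 1 in those of 96 h, a ratio per total of 87.8 (95% exact counting interval 14.8 to 3560). In wt Activin A gastruloids it had 15 reads at 120 h and 2 at 96 h, a ratio of 19.7 (4.59 to 178). Both intervals pool the reads of a group's libraries, leave out the spread between libraries and are not tests. By mean FPKM the wt Activin A direction was the opposite, at 0.993 at 96 h and 0.669 at 120 h. In Chiron gastruloids it was the same, at 0.220 and 0.742. The FPKM of Rtl1 was highest in Hox-/- Activin A gastruloids at 96 h, at 1.70 and 1.49, where 0 and 1 reads were counted. In the Chiron libraries of 120 h the FPKM was 0.807 and 0.676, with 19 reads in each. Hox-/- endoderm was listed at 0.313, 0.283 and 0.246 FPKM with 0 reads in every library. Across the 22 libraries Rtl1 FPKM and Rtl1 CPM had a Pearson r of 0.146 (Spearman 0.110), whereas Rtl1 FPKM and Mirg FPKM had 0.934 (Spearman 0.796). These correlations are descriptions over libraries that share groups, depth and processing. The kit kept strand, but the sources used here do not say how strand was handled in either measure. Whether reads of the opposite strand, where the 5 microRNAs printed above lie, entered the Rtl1 values was not tested. Statements on Rtl1 above rest on counts.

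**Figure D3:**
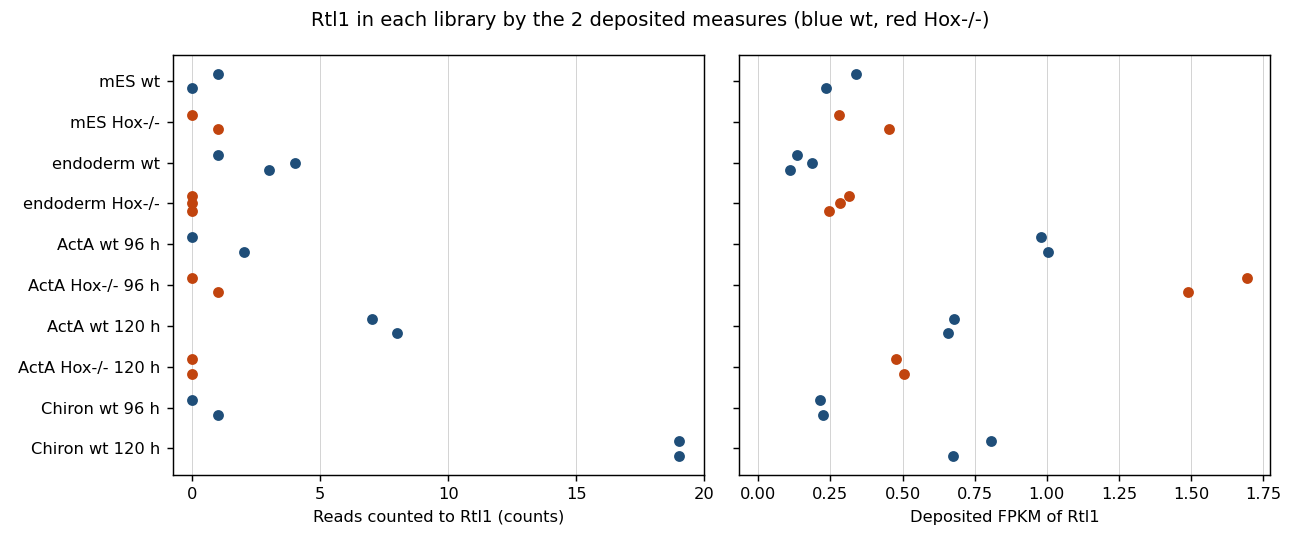
Rtl1 in each library as reads counted (left) and as deposited FPKM (right), by group. The 2 measures order the groups differently: counts peak at 19 in Chiron gastruloids at 120 h, FPKM at 1.70 in Hox-/- Activin A gastruloids at 96 h.

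Meg3 also differed between the measures. Its FPKM per CPM was 0.502 to 0.552 in 8 libraries and 0.310 to 0.355 in the other 14, with none between. The 8 were both Hox-/- mES libraries, all 3 wt endoderm libraries, 1 Hox-/- endoderm library and both Hox-/- Activin A libraries of 120 h. For Rian the same quotient stayed between 0.390 and 0.504, and for Mirg between 1.04 and 1.41. For Dlk1 it ran from 0.532 to 1.80 over the 21 libraries with more than 3 reads, and from 0.532 to 0.805 outside mES cells. In endoderm, Meg3 was at 390, 475.5 and 417 FPKM in wt and 442, 583 and 611 in Hox-/-, so that genotypes overlapped in FPKM and not in CPM. At 120 h under Activin A it was at 480 and 468 FPKM in wt and 782 and 738 in Hox-/- (log2 ratio 0.68), where CPM overlapped. From 96 h to 120 h in Hox-/- Activin A gastruloids the Meg3 log2 ratio was -0.36 by CPM and 0.25 by FPKM. FPKM depends on the transcript lengths assumed in each library, and the cause of the split was not tested.

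Within libraries, Rian and Mirg can be set against Meg3 with no need to scale for depth; as counts carry gene length, these quotients compare libraries and not the genes' levels. Reads of Rian per read of Meg3 ran from 0.637 to 1.74 and exceeded 1 in 14 of 22 libraries. The mean was 1.46 ± 0.071 in wt and 1.39 ± 0.064 in Hox-/- Activin A gastruloids at 96 h and 0.657 ± 0.029 and 0.796 ± 0.023 at 120 h (SD, n = 2). In Chiron gastruloids it was 1.68 ± 0.014 at 96 h and 0.85 ± 0.082 at 120 h. In mES cells it was 1.64 ± 0.13 in wt and 1.72 ± 0.028 in Hox-/- (n = 2), and in endoderm 1.07 ± 0.1 and 1.15 ± 0.18 (n = 3). The quotient was thus lower at 120 h than at 96 h in each gastruloid series and lower in endoderm than in mES cells, with no overlap in counts. In counts the genotypes did not overlap at 120 h and overlapped in mES cells, in endoderm and at 96 h. The quotient of the FPKM values, which carries the split in Meg3, gave another picture of the genotypes. It was 1.93 to 2.13 in wt and 1.39 to 1.42 in Hox-/- mES cells, 0.793 to 0.970 and 1.20 to 1.68 in endoderm, 1.70 to 1.81 and 1.58 to 1.64 at 96 h, and 0.871 to 0.914 and 0.664 to 0.665 at 120 h. By FPKM the genotypes thus did not overlap in any of the 4 settings, and at 120 h the Hox-/- libraries lay below wt instead of above. Hox-/- endoderm and Hox-/- mES cells overlapped by FPKM, whereas wt endoderm stayed below wt mES cells, and each gastruloid series was lower at 120 h by both measures. Mirg per Meg3 was 0.142 ± 0.02 in wt mES cells and 0.0531 ± 0.0047 in wt endoderm.

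The balance of the maternal and paternal sides was followed as Meg3 FPKM per Dlk1 FPKM. It was 17.8 ± 0.96 in wt and 46.7 ± 6.7 in Hox-/- endoderm (SD, n = 3). In Activin A gastruloids it was 146 ± 35 and 254 ± 21 at 96 h, and 55.9 ± 8.1 and 128 ± 18 at 120 h (n = 2). In Chiron gastruloids it was 22.4 ± 5 at 96 h and 24.3 ± 1.4 at 120 h. The Hox-/- libraries lay above the wt libraries in all 4 settings, including mES cells, where it was 129 ± 54 in wt and 338 ± 150 in Hox-/- with Dlk1 at few reads. The split in Meg3 FPKM per CPM and the range of the same quotient for Dlk1 enter these values.

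**Figure D4:**
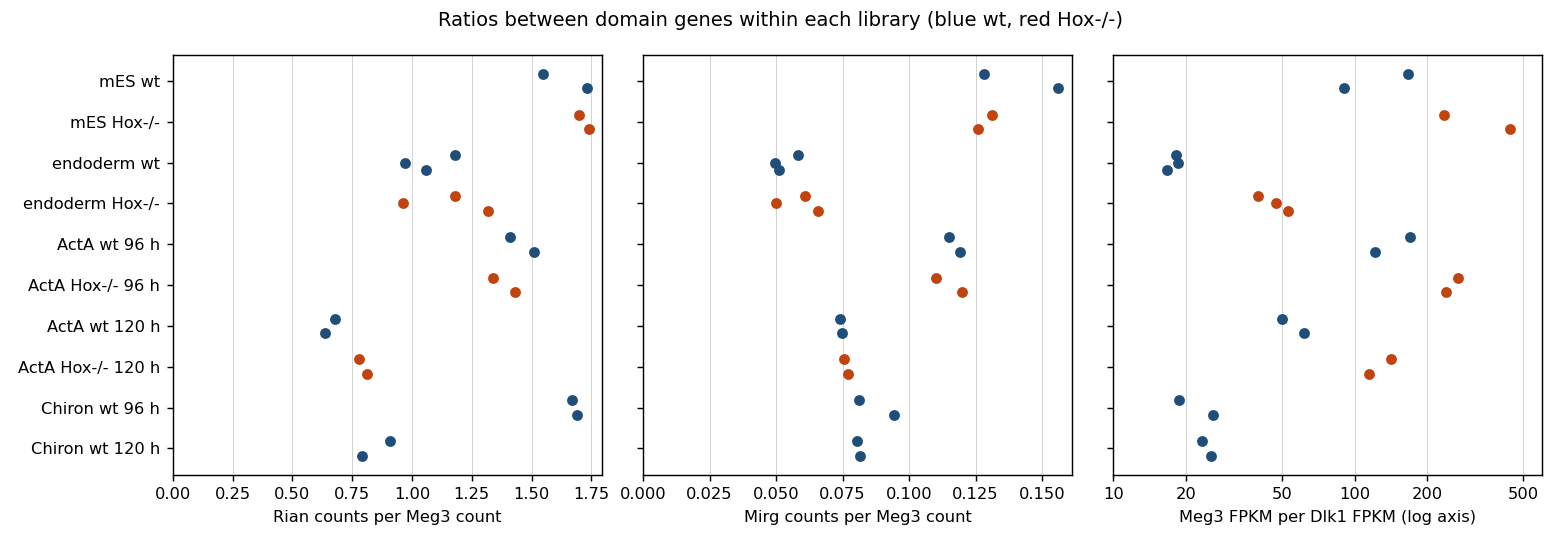
Reads of Rian and of Mirg per read of Meg3, and Meg3 FPKM per Dlk1 FPKM (log axis), in each library by group. Rian per Meg3 separates 96 h from 120 h in the 3 gastruloid series (1.34 to 1.69 against 0.637 to 0.908).

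Few reads were counted for other transcripts of the domain in these libraries, which were selected for poly(A) and do not measure mature microRNAs. On the same strand, 4 microRNA and 13 snoRNA genes overlap Rian, and 14 microRNA genes overlap Mirg. How reads shared with these RNAs were counted is not stated, so low counts are not read as silence. Of 118 genes annotated over the 828.3 kb from Dlk1 to Dio3, 67 are microRNA genes and 23 snoRNA genes. Of 109 listed besides the 5 members and Dio3, 18 had more than 3 reads in some library and 57 had none in any library. Mir434, opposite Rtl1, reached 14 and 24 reads in Hox-/- and 8 and 18 in wt Activin A gastruloids at 96 h, and 1 to 4 in mES libraries. The snoRNA gene Gm24564 reached 8 to 27 reads in Hox-/- and 10 to 16 in wt endoderm. Gm3379, a processed pseudogene whose reads may belong to its source gene, reached 131 and 173 reads in Hox-/- and 125 and 172 in wt Activin A gastruloids at 96 h.

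Genes around the domain were tested with edgeR's quasi-likelihood test on counts, with Benjamini-Hochberg adjustment over all genes tested and a call at an adjusted p under 0.05. Of 15 neighbours on both sides, 12 passed the filter on low counts in mES cells, and 2 rose and 3 fell in Hox-/-, beside 23.2% of all genes called. In endoderm 2 rose and 3 fell of 13 (46.2% of all genes called). In Activin A gastruloids at 96 h 0 rose and 3 fell of 14 (38.9%), and at 120 h 4 rose and 3 fell of 14 (50.4%). Under Activin A against Chiron 2 rose and 4 fell of 14 at 96 h (61.6%) and 2 rose and 2 fell of 14 at 120 h (41.9%). The median log2 fold change of the neighbours lay between -0.09 and 0.08 in the 6 contrasts, and that of all genes between -0.02 and 0.03. At 96 h, 1 neighbour was higher at an unadjusted p under 0.05 in edgeR, 0 were called higher by DESeq2 or by limma on FPKM, and 1 was with RLE scaling. Over the 5 lists tested, 28 genes were called in mES cells, and 15 when wt replicate 1 or wt replicate 2 was left out, so the mES counts rest on those libraries. Of the neighbours, 3 and 2 were then called in mES cells. At 96 h, 1 neighbour was called without Hox-/- replicate 1; Mok, a kinase, and Slc25a29, a mitochondrial carrier, each lost the call in 5 of 13 other settings, DESeq2 and both limma fits among them. Under Activin A against Chiron at 96 h, 3 neighbours were called without wt Activin A replicate 2.

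Dio3, at chr12:110279068-110281097 on the plus strand, was the neighbour at the paternal far end. It fell in Hox-/- mES cells, from 5.75 ± 1.10 to 2.83 ± 0.436 CPM (n = 2, log2 fold change -1.004, SE 0.217, edgeR adjusted p 7.03e-04). It fell in Hox-/- endoderm from 4.71 ± 0.561 to 2.41 ± 0.544 CPM (n = 3, -0.96, SE 0.199, edgeR adjusted p 0.00128). At 120 h it fell from 2.01 ± 0.209 to 0.489 ± 0.162 CPM (n = 2, -1.90, SE 0.465, edgeR adjusted p 5.34e-04). At 96 h it was at 0.646 ± 0.0917 CPM in wt and 0.491 ± 0.0327 in Hox-/- and was not called (edgeR adjusted p 0.597). In wt gastruloids of 120 h it was higher under Activin A than under Chiron (0.369 ± 0.0714 CPM, log2 fold change 2.35, edgeR adjusted p 4.82e-04). The Chiron libraries were at 0.318 to 0.419 CPM, where the floor was 0.251 and 0.318 CPM. In Hox-/- Activin A libraries of 120 h the floor was 0.259 and 0.281 CPM. Both 120 h fold changes of Dio3 thus rest on few reads. Dio3os, the noncoding RNA that starts beside Dio3 on the other strand, was at 1.09 ± 0.320 CPM in wt Activin A gastruloids of 120 h, and at the floor in Hox-/- Activin A and wt Chiron gastruloids of that time. Without a stated strand setting, Dio3os and Dio3 reads are uncertain as to strand, although the annotated genes do not overlap.

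Begain, the nearest listed neighbour on the Dlk1 side, was at 2.37 ± 0.0605 CPM in wt and 1.32 ± 0.277 in Hox-/- mES cells (n = 2, log2 fold change -0.85, SE 0.316, edgeR adjusted p 0.0456). That call was lost when any 1 of the 4 mES libraries was left out (edgeR adjusted p 0.052 to 0.254). In the other 5 contrasts Begain was not called, with log2 fold changes from -0.17 to 0.08. Evl, a regulator of the actin cytoskeleton on the Dlk1 side, rose in Hox-/- endoderm from 67.9 ± 3.70 to 118 ± 0.900 CPM (n = 3, log2 fold change 0.81, edgeR adjusted p 2.97e-08).

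**Figure D5:**
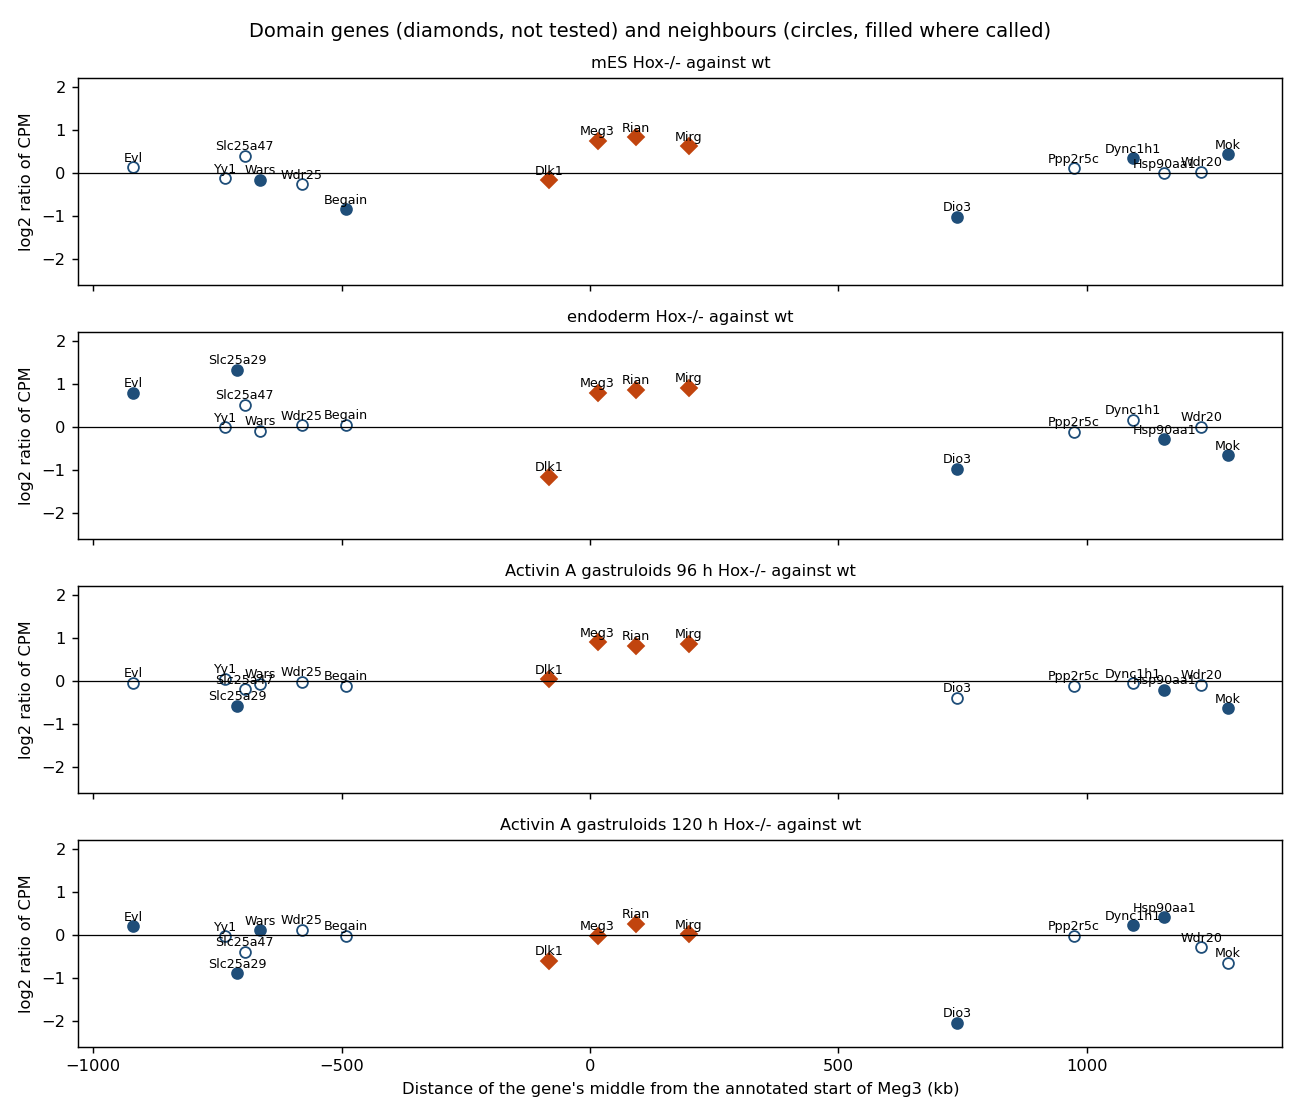
Log2 ratio of mean CPM, Hox-/- over wt, against the distance of each gene's middle from the start of Meg3 (kb), in the 4 genotype comparisons; diamonds are the domain genes (not tested), circles neighbours, filled where edgeR called them. Meg3, Rian and Mirg stand between 0.62 and 0.91 in the first 3 panels while Dio3 lies below 0 in all 4.

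Of 19 genes that write, read or erase the methylation of imprints or bind imprinted regions, 18 were tested in mES cells, and 4 rose and 6 fell in Hox-/- (55.6% called, beside 23.2% of all genes). Without wt replicate 1 or wt replicate 2 of the mES cells, 5 and 4 genes of this list were called. In endoderm 5 rose and 8 fell of 19 (68.4%, beside 46.2%), in Activin A gastruloids of 96 h 4 rose and 5 fell of 18 (50%, beside 38.9%), and at 120 h 9 rose and 6 fell of 18 (83.3%, beside 50.4%). The median log2 fold change was -0.06, -0.05, 0.04 and 0.15. Dnmt3a, a de novo DNA methyltransferase, rose in all 4 (log2 fold change 0.71, 0.34, 0.36 and 0.77; edgeR adjusted p at most 3.00e-05). Dnmt3b, the second de novo enzyme, fell in all 4 (-0.25, -1.13, -0.60 and -0.21; edgeR adjusted p at most 3.62e-04). Dnmt3l, their cofactor, fell in endoderm from 32.2 ± 2.18 to 7.24 ± 0.620 CPM (n = 3, -2.14, edgeR adjusted p 3.95e-10). It was at 33.25 ± 0.963 CPM in wt mES cells. The 7 pluripotency markers were also lower in Hox-/- endoderm, at a summed 225 to 242 CPM against 780 to 911 in wt, and their part was not tested. Zfp57, a zinc finger protein that protects imprints, fell from 61.1 ± 3.97 to 30.6 ± 2.42 CPM at 96 h (n = 2, -0.93, edgeR adjusted p 4.35e-18) and from 102 ± 2.90 to 42.9 ± 2.59 at 120 h (-1.14, edgeR adjusted p 3.14e-20). Under Activin A against Chiron 4 rose and 11 fell of 19 at 96 h (78.9%, beside 61.6%), and 3 rose and 10 fell of 19 at 120 h (68.4%, beside 41.9%), with a median of -0.20 at both times.

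Imprinted genes of other domains were counted by the parental copy they are listed under. Which copy was read in these cells was not measured. Of 19 paternally expressed genes, 5 rose and 1 fell of 15 tested in Hox-/- mES cells (40% called, beside 23.2% of all genes), 7 rose and 4 fell of 19 in endoderm (57.9%, beside 46.2%), 11 rose and 2 fell of 19 at 96 h (68.4%, beside 38.9%), and 7 rose and 6 fell of 19 at 120 h (68.4%, beside 50.4%). Peg10, a retrotransposon-derived gene like Rtl1, was at 424 ± 8.19 CPM in wt and rose to 703 ± 18.3 in Hox-/- gastruloids at 96 h (n = 2, log2 fold change 0.78, edgeR adjusted p 3.61e-23). In endoderm it fell from 2692 ± 181 to 1571 ± 79.9 CPM (n = 3, -0.77, edgeR adjusted p 1.69e-07). Of 12 maternally expressed genes, 2 rose and 3 fell of 9 tested in mES cells (55.6%), 2 rose and 5 fell of 8 in endoderm (87.5%), 1 rose and 9 fell of 11 at 96 h (90.9%), and 2 rose and 7 fell of 11 at 120 h (81.8%), beside the shares of all genes just given. In mES cells 2 were called without wt replicate 1, and 3 without either Hox-/- replicate. Their median log2 fold change was -0.10, -1.40, -1.48 and -1.32. Several of the 12 genes, H19, Kcnq1 and Cdkn1c among them, lie in the same imprinted region, so these counts and medians are not over separate loci. H19, a maternal noncoding RNA like Meg3, was the gene that rose at 96 h, from 9.75 ± 0.854 to 38.0 ± 5.94 CPM (n = 2, log2 fold change 2.04, edgeR adjusted p 3.96e-26). Grb10, an adaptor that limits growth, fell from 216 ± 0.649 to 7.92 ± 0.234 CPM at 96 h (n = 2, -4.71, edgeR adjusted p 4.26e-47). Cdkn1c, an inhibitor of the cell cycle, fell from 76.1 ± 1.06 to 6.53 ± 1.01 CPM (n = 2, -3.46, edgeR adjusted p 2.71e-37). At 96 h under Activin A against Chiron, 6 rose and 7 fell of 19 paternal (68.4%) and 6 rose and 4 fell of 11 maternal genes (90.9%), beside 61.6% of all genes, and at 120 h 6 rose and 6 fell of 19 (63.2%) and 8 rose and 0 fell of 11 (72.7%), beside 41.9%. Of these maternal genes 0 were lower at 120 h at an unadjusted p under 0.05 in edgeR, and 0 were called lower by DESeq2 or limma. Igf2, a growth factor beside H19, was at 3.06 ± 0.442 CPM under Activin A and 81.5 ± 9.71 under Chiron at 96 h (n = 2, log2 fold change -4.80, edgeR adjusted p 1.52e-19).

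Dlk1 is held to act on Notch signalling and is shed by ADAM proteases, so 10 such partners and reported targets were counted. In Hox-/- mES cells 2 rose and 0 fell of 8 tested (0 lower at an unadjusted p under 0.05 in edgeR, and 0 by DESeq2 or limma), in endoderm 3 rose and 1 fell of 9, at 96 h 2 rose and 5 fell of 9, and at 120 h 6 rose and 2 fell of 9. The shares called were 25%, 44.4%, 77.8% and 88.9%, beside 23.2%, 46.2%, 38.9% and 50.4% of all genes, so that those in mES cells and endoderm were near the background. Without Hox-/- replicate 1 of 120 h, 5 rose and 0 fell there. In mES cells 1 was called without wt replicate 1, wt replicate 2 or Hox-/- replicate 1, and 4 without Hox-/- replicate 2. The receptor Notch1 rose at 120 h from 168 ± 11.9 to 666 ± 41.9 CPM (n = 2, log2 fold change 2.10, edgeR adjusted p 3.61e-37). Hey1, a Notch target, rose at 120 h from 80.1 ± 3.74 to 210 ± 9.21 CPM (n = 2, 1.50, edgeR adjusted p 3.88e-29) and fell at 96 h from 15.2 ± 0.317 to 7.97 ± 0.962 (-0.86, edgeR adjusted p 7.35e-10). Hes1, another target, fell at 96 h from 95.1 ± 3.45 to 53.4 ± 6.35 CPM (n = 2, -0.77, edgeR adjusted p 2.12e-16). Sox9, also of this list, fell at 96 h from 45.02 ± 1.65 to 23.8 ± 0.802 CPM (n = 2, -0.86, edgeR adjusted p 8.88e-16), a comparison in which Dlk1 itself overlapped. Under Activin A against Chiron 4 rose and 3 fell of 9 at 96 h (77.8%, beside 61.6%), and 4 rose and 2 fell of 9 at 120 h (66.7%, beside 41.9%).

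The likeness of other genes to the members was taken as Pearson's r of log2(CPM + 1) over the 22 libraries, among 13271 genes with a mean of at least 5 CPM in some group. It is a description, since libraries of a group are alike and share table and depth. Meg3 and Rian had an r of 0.905, which put Rian at rank 21 of the genes most like Meg3 and Meg3 at rank 5 of those most like Rian. Meg3 and Mirg had an r of 0.880, and Rian and Mirg 0.882. Dlk1 and Meg3 had an r of 0.592, at rank 3236 of the genes most like Dlk1. The gene most like Dlk1 was Col4a2 (r 0.973), a chain of basement membrane collagen, with its partner chain Col4a1 at rank 4 (r 0.966). The gene most like Meg3 was Nfatc4 (r 0.959), that most like Rian was Abcg2 (r 0.933), and that most like Mirg was Derl2 (r 0.929). Snhg14, the host RNA of another imprinted snoRNA cluster, stood at rank 5 for Mirg (r 0.907). For Rtl1, whose counts are few, the gene most like it was Ntn5 (r 0.943), and the nearest member was Dlk1 at rank 2519 (r 0.442).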

How the data were processed

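Per Ensembl gene and library, the authors deposited raw whole-number counts. They deposited FPKM for the same genes in separate tables, which the authors paired with symbols and positions. RNA was poly(A)-selected and put through a stranded kit, per the labels' protocols. Reads were trimmed with cutadapt 1.16, aligned with STAR and summarised with Cufflinks 2.2.1 on mm10, per the submitters' processing notes; which tool counted reads, and with which strand setting, is not given in the sources used here. The gastruloid files list 55141 genes and the others 55055. The 4 wt Activin A libraries appear in both gastruloid tables with identical counts.

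Counts were joined to symbols by gene ID. CPM divided counts by the column total; log2 ratios compare group mean CPM, and a group with 3 counts or fewer in each library is at the floor. Positions are those of the deposited FPKM tables, 1-based; the starts of Dlk1 and Rian there differ from the GENCODE gene models used for strand and type. Other genes were tested with edgeR 4.0.16 (filterByExpr, TMM, 1 coefficient per group, quasi-likelihood test, Benjamini-Hochberg adjustment), fitted per table, so that the 4 groups of a gastruloid table share an estimate of the spread. Limma 3.58.1, DESeq2 1.42.0, other scalings and filters, a replicate block and each library left out were alternatives. The edgeR test was also run on simulated counts with a single fixed spread for all genes. That setting is simpler than these data, so it does not show how the test performs on these libraries.

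The members and the 5 lists of other genes were chosen with earlier results of these data known. Among called genes, up to 3 per list and contrast with the smallest p, with Dio3 and Begain always, could be named, and not every gene so chosen is described. Mir434, Gm24564 and Gm3379 were picked after their values were seen. The 12 marker lists are described by their sums, and those that bear on a result are given.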

Additional observations from a re-analysis of the deposited data

Results flagged for a closer look

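Some values had opposite signs in all samples of groups set side by side, and the difference was not tested for any of them. The gastruloid comparisons share wt Activin A libraries. Rian was higher under Activin A than under Chiron at 96 h (log2 ratio 1.08) and lower at 120 h (-0.11). From 96 h to 120 h the log2 ratio of Meg3 was 0.55 in wt Activin A, -0.36 in Hox-/- Activin A and 1.59 in Chiron gastruloids by CPM; by FPKM it was 0.46, 0.25 and 1.47, with no opposite sign. Rian gave -0.60, -1.16 and 0.60, and Mirg -0.09, -0.95 and 1.47, in the same order.

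Among the tested genes, Hey1 had a log2 fold change of -0.86 at 96 h and 1.50 at 120 h in Hox-/- Activin A gastruloids. Igf2 had -1.09 and 0.40 in the same comparisons. Peg10 had -0.83 in mES cells, -0.77 in endoderm, 0.78 at 96 h and -0.22 at 120 h. Grb10 had -0.44 at 96 h and 0.86 at 120 h under Activin A against Chiron. No group held enough libraries to look for a single sample far from the others.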

How the results depend on the processing

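Of the member ratios recomputed under other settings, 327 stayed within the spread between libraries and 48 moved beyond it, besides the change of sign named below. Every ratio with 1 library left out is among the 327. That was all but fixed in advance, since the spread is taken from the same libraries. The 327 are therefore no measure of stability. Where libraries did not overlap, 1 value changed sign, Meg3 in Hox-/- Activin A gastruloids from 96 h to 120 h, at 0.25 by FPKM. Where they overlapped, 5 of those values of 3 ratios changed sign: Meg3 at 120 h (-0.02) under FPKM, TMM and RLE, Dlk1 in mES cells (-0.17) at 0.19 without Hox-/- replicate 2, and Dlk1 at 96 h (0.04) at -0.04 without wt replicate 1. By FPKM the Hox-/- against wt ratio of Meg3 was 1.33 in mES cells, 0.35 in endoderm and 0.68 at 120 h. By FPKM, Mirg was at 0.37 in mES cells, 0.94 at 96 h and 0.08 at 120 h, and Rian at 1.06 in endoderm. At 120 h, TMM and RLE scaling gave 0.09 and 0.10 for Meg3, 0.37 and 0.38 for Rian, and 0.13 and 0.14 for Mirg. Rian under Activin A against Chiron at 96 h was 1.02 with TMM scaling. The cause was not tested. Leaving out 1 library moved Dlk1 between -0.64 and 0.19 in mES cells and between -0.04 and 0.12 at 96 h, where its groups overlapped.

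Of the 5 lists' genes, 28 were called in mES cells, against 14 by DESeq2, 17 by limma on log2(FPKM + 1) and 5 by limma on log2(FPKM + 0.1). Limma on log2(FPKM + 1) called 26 in endoderm (40 by edgeR), 23 at 96 h (42), and 29 and 26 under Activin A against Chiron at 96 h and 120 h (51 and 43). The log2(FPKM + 1) fits had no filter on low values, and limma warned in mES cells and endoderm that its shared variance was unreliable. The log2(FPKM + 0.1) fits kept genes with an FPKM of at least 1 in 2 libraries, so there the pseudocount and the filter changed together. With 1 library left out the counts ran from 15 to 29 in mES cells (15 without wt replicate 1 and without wt replicate 2), 35 to 40 in endoderm, 33 to 38 at 96 h and 47 to 52 at 120 h. Under Activin A against Chiron they ran from 42 to 50 and from 35 to 41. Where that leaves 1 library in a group, it is assumed to vary like the others. Of 98 gene and contrast pairs that could be named, 21 lost a call under some setting. Of those called, 0 changed sign; Begain changed sign in 4 contrasts in which it was not called (7 values, -0.13 to 0.24). Dio3 lost its mES call under limma on log2(FPKM + 0.1) (adjusted p 0.0912) and its 120 h call under limma on log2(FPKM + 1) (adjusted p 0.0511).

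Whether replicate numbers pair the libraries could not be settled. Deviations of same-numbered libraries correlated at -0.224, 0.211 and 0.020 in endoderm, 0.117 in mES cells and between -0.017 and 0.032 in gastruloids. In groups of 2 libraries the deviations mirror each other, so each comparison gives a single correlation and cannot exclude pairing. With the replicate number as a block, 31, 40, 41 and 52 genes were called in the genotype comparisons and 52 and 44 in the treatment comparisons. Depth limits Rtl1 in all groups, Dlk1 in mES cells, and Dio3 in Chiron and Hox-/- Activin A gastruloids of 120 h.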
